A study of Mus musculus with 4 samples.

Results

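The KDM3 demethylase genes *Kdm3a*, *Kdm3b* and *Jmjd1c* were examined in the vermis of the mouse cerebellum. They were taken by their NCBI mouse gene numbers from the 24532 identifiers that each library lists, and all 3 genes had a value in every library. The samples were bulk RNA of granule-cell-enriched (GCE) tissue, cut by hand from vermal slices, from 2 wild-type (WT) and 2 heterozygous *Kdm3b* knockout (*Kdm3b*+/-) mice, with 1 library per mouse. The mice were adult males, and WT mice were littermates of the mutants. The *Kdm3b*+/- mice carried the pGT0lxf gene-trap vector in 1 copy of *Kdm3b* in every cell. All trace to a single ES cell line, YTC406, and were bred first to C57Bl/6N and later to C57Bl/6J mice. The question was how strongly each gene of the family is expressed, and whether the level of the paralogs differs when 1 copy of *Kdm3b* is trapped.

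KDM3 enzymes belong to the JmjC demethylases, which use iron, oxygen and 2-oxoglutarate to take methyl groups off lysine. Their best known substrates are the mono- and dimethylated forms of lysine 9 of histone H3 (H3K9me1 and H3K9me2), marks of silent chromatin that the methyltransferases Ehmt1 and Ehmt2 write. *Kdm3a* is known for its role in sperm maturation and energy balance, and is a gene that hypoxia-inducible factors switch on. *Kdm3b* is the gene trapped here, and human variants of it are linked to intellectual disability. *Jmjd1c* encodes the largest protein of the family, binds thyroid hormone receptors, and has a demethylase activity on H3K9 that is disputed.

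Since *Kdm3a* is known as a target of hypoxia-inducible factors, the 250 bases before its annotated start were searched for ACGTG and GCGTG, the core letters of a hypoxia response element, on both strands, and *Jmjd1c* was read in the same way for comparison. The sequences are from RefSeq (GRCm38.p6), run 5′ to 3′ on the strand of the gene, and have the motif in capitals.
Kdm3a, chr6:71632918-71633167, reverse strand: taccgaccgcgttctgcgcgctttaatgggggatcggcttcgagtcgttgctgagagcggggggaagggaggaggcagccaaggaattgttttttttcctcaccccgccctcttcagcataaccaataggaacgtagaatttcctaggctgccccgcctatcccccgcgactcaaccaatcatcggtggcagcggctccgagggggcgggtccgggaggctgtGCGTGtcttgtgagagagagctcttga
Jmjd1c, chr10:67126838-67127087, forward strand: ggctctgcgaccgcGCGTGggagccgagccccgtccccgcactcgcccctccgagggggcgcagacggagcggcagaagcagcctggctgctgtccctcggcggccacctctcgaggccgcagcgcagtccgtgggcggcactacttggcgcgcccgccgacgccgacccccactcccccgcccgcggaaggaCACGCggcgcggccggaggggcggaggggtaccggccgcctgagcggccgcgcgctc
*Kdm3a* held GCGTG once, from 27 bases before the start. *Jmjd1c* held it on the forward strand from 236 bases before the start, and on the opposite strand, where it reads CACGC, from 57 bases before. ACGTG was in neither window. Of 32851 windows of this length, 28.2% held GCGTG and 38.6% held at least 1 of the pair, so the letters alone set neither gene apart. The start of *Jmjd1c* in the deposited tables lies 170 bases from the one used for its window.

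The deposited tables place *Kdm3a* on the reverse strand of chromosome 6, chr6:71588970-71632917, *Kdm3b* on the forward strand of chromosome 18, chr18:34777008-34839370, and *Jmjd1c* on the forward strand of chromosome 10, chr10:67127258-67256326. The build is not named by the sources used here, and 99.6% of all identifiers lay on the chromosome that RefSeq gives them in GRCm38.p6. The longest coding transcript in GENCODE has 26 exons and 1323 codons for *Kdm3a*, 24 exons and 1762 codons for *Kdm3b*, and 26 exons and 2531 codons for *Jmjd1c*. The paralogs shared no stretch of 31 bases in these transcripts, so a read of that length or longer that matches exactly belongs to 1 of them. Compared with all other GENCODE transcripts, 0.458% of the 31-base stretches of *Kdm3b* recurred elsewhere, and none did for *Kdm3a* or *Jmjd1c*. The antisense lincRNA *Gm26538* overlaps 53 of the 6363 exonic bases of *Kdm3b*, and whether the libraries kept strand is not given in the sources used here. The trap lies between exons 12 and 13. Exons up to exon 12 hold 53.3% of the transcript, and reads on them count toward *Kdm3b* whichever allele they come from.

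The aligned sequence came to 4.92 and 5.74 gigabases for WT and 5.69 and 6.69 gigabases for *Kdm3b*+/- mice. All 8 granule cell markers were expressed, with a summed TPM between 3378 and 4141 in WT mice and between 3499 and 3577 in *Kdm3b*+/- mice. Of these, *Zic1* was higher (log2 fold change 0.58) and *Cbln3* lower (−0.43) in *Kdm3b*+/- mice without overlap, and the others overlapped. TPM is a measure of transcript number, scaled to the length of a gene and to 1000000 per library. All 8 Purkinje cell markers were present too, with a summed TPM of 1147 and 503 in WT libraries and of 603 and 503 in *Kdm3b*+/- libraries, and their median log2 fold change was −0.50. The summed TPM of the 6 interneuron markers likewise was highest in WT mouse 1, at 477. It was 219 in WT mouse 2, and 284 and 259 in *Kdm3b*+/- mice. *Pvalb* gave much of this, with 290 and 80.2 in WT libraries and 161 and 145 in *Kdm3b*+/- libraries. Without overlap, *Sst* was higher in *Kdm3b*+/- mice (log2 fold change 0.81), and *Kit* (−0.53), *Prkcd* (−0.82) and *Gad1* (−0.58) were lower. Summed TPM was between 564 and 604 in WT mice and between 592 and 666 in *Kdm3b*+/- mice for the 6 astrocyte and Bergmann glia markers, and between 15049 and 16525 against between 14287 and 17135 for the 5 oligodendrocyte markers. The ranges were 64.5 to 79.3 against 64.8 to 75.8 for the 4 microglia markers, 82.0 to 88.7 against 80.8 to 107 for the 3 endothelial markers, and 30.4 to 38.0 against 25.6 to 27.4 for the 3 fibroblast markers. Of the fibroblast markers *Dcn* was lower (log2 fold change −0.48) and *Lum*, at a low TPM, was higher (0.95). The 3 choroid plexus markers summed to at most 1.30, with *Ttr* listed at 0 in WT mouse 2 and *Folr1* in *Kdm3b*+/- mouse 1. Of all these markers 1 was called in limma, *Aqp4*, the water channel of astrocytes, with a TPM of 59.2 and 82.3 in WT and of 149.96 and 152 in *Kdm3b*+/- mice (adjusted p = 0.0329). The other astrocyte and Bergmann glia markers lay on both sides of 0. *Hopx* was higher without overlap (log2 fold change 0.53), *Slc1a3* (−0.47), *Gdf10* (−1.03) and *Aldh1l1* (−0.69) were lower without overlap, and *Gfap* overlapped. An unadjusted p under 0.05 was found for 5 of the 6, 2 higher and 3 lower. Of all genes tested, 51.3% did not overlap between the groups, 17% had an unadjusted p under 0.05 and 0.461% were called in limma. In bulk tissue, fewer cells of a type and less RNA per cell cannot be told apart. The part of these marker levels in the results below was not tested.

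*Kdm3b*, the trapped gene, was lower in *Kdm3b*+/- mice than in WT mice in these libraries, by less than the test could call. Its TPM was 9.10 and 11.0 in WT libraries, and 8.30 and 7.90 in *Kdm3b*+/- libraries. Both *Kdm3b*+/- mice lay below both WT mice, and the WT mice were farther apart from each other (0.25 on the log2 scale) than the *Kdm3b*+/- mice were (0.06). The group means were 10.0 ± 1.34 and 8.10 ± 0.287 (SD, n = 2 each), so that the mean was lower by 19.4%. On the log2(TPM + 1) scale, which slightly understates changes at this level, the fold change of *Kdm3b* was −0.27 (standard error 0.17), with a 95% interval from −0.65 to 0.10 and an adjusted p of 0.424 in limma. A halving of the WT level would be −0.87 on this scale and lies outside that interval. However, reads on the exons before the trap, 53.3% of the transcript, can come from either allele. Reads past the trap were not counted apart, and the part of each allele in this level was not tested. Without WT mouse 2 the fold change of *Kdm3b* was −0.15, and without WT mouse 1 it was −0.40.

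*Kdm3a* was not higher in the mice with a trapped copy of *Kdm3b*. Its TPM was 11.2 and 15.4 in WT libraries, and 10.1 and 9.64 in *Kdm3b*+/- libraries. Both *Kdm3b*+/- values were again below both WT values, and WT mouse 2 was the highest of the 4 mice. The means were 13.3 ± 2.92 and 9.85 ± 0.287 (SD, n = 2 each), which is lower by 26.0%. The log2 fold change of *Kdm3a* was −0.38 (standard error 0.18, adjusted p = 0.317 in limma), with a 95% interval from −0.80 to 0.03. The upper end of this interval is 1.02 times the WT value of TPM + 1. The estimate was −0.18 without WT mouse 2 and −0.59 without WT mouse 1.

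*Jmjd1c* was the paralog with a higher level in *Kdm3b*+/- mice, by an amount that did not pass the test. The TPM of *Jmjd1c* was 18.4 and 17.2 in WT libraries, and 19.7 and 20.1 in *Kdm3b*+/- libraries. The groups did not overlap, and both had a narrow spread, with means of 17.8 ± 0.829 and 19.9 ± 0.297 (SD, n = 2 each), a mean higher by 11.8%. On the log2 scale *Jmjd1c* differed by 0.15 (standard error 0.15), with an adjusted p of 0.619 in limma. Its 95% interval ran from −0.18 to 0.49, which is 0.883 to 1.40 times the WT value of TPM + 1. Leaving out WT mouse 2 gave 0.11 and leaving out WT mouse 1 gave 0.20. The distance between the WT mice ran the other way from that of *Kdm3a* and *Kdm3b*, WT mouse 2 being the lowest of the 4 mice for *Jmjd1c* and the highest for the other genes.

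**Figure D1:**
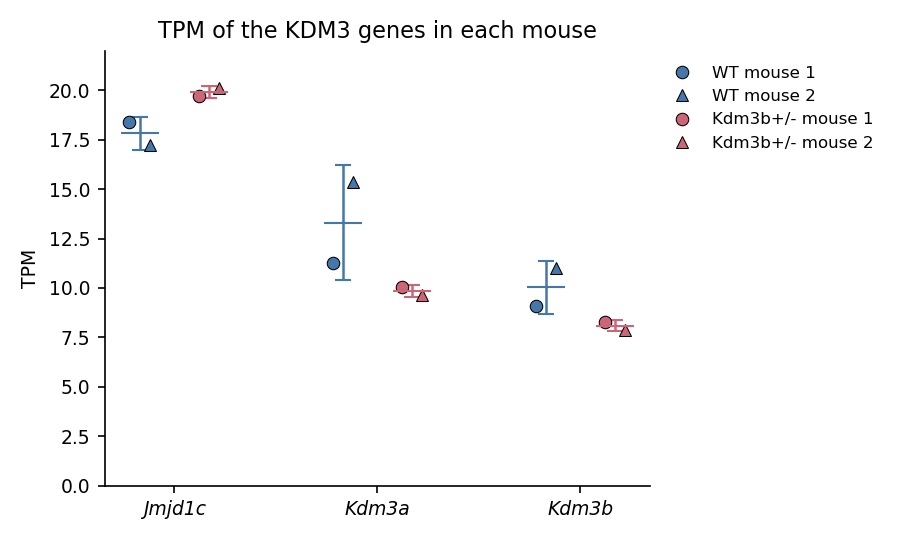
TPM (y axis) of each KDM3 gene (x axis) in each mouse. Circles are mouse 1 and triangles mouse 2 of a group, and the horizontal marks and bars give the mean ± SD (n = 2). The *Kdm3b*+/- mice lie below the WT mice for *Kdm3a* (at most 10.1 against at least 11.2) and *Kdm3b* (at most 8.30 against at least 9.10), and above them for *Jmjd1c* (at least 19.7 against at most 18.4).

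None of the 3 genes was called in limma (adjusted p below 0.05 together with a change of more than 1.2-fold), whereas 0.461% of the 13652 genes tested were, 0.344% lower and 0.117% higher, and none had an unadjusted p under 0.05, as 17% of all genes did. With 2 mice against 2, an exact permutation test cannot go below a two-sided p of 0.333. The groups did not overlap for any of the 3 genes, but this held for 51.3% of all genes tested, with 32% lower and 19.2% higher in *Kdm3b*+/- mice, so it is not a result about the family. The median log2 fold change of all genes was −0.07. By size of change, 17.9% of all genes moved more than *Kdm3a*, 32.7% more than *Kdm3b* and 57.7% more than *Jmjd1c*. All 3 transcripts fall in the longest of 4 length classes of equal size, where the median log2 fold change was −0.07. From the shortest class up, the others had medians of 0.09, −0.12 and −0.18, so the medians did not fall steadily with length. With a correction of the TPM of each library for length and GC of transcripts, which was tried after seeing the data, the log2 fold change of *Kdm3b* was −0.14, and those of *Kdm3a* and *Jmjd1c* were −0.27 and 0.12.

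**Figure D2:**
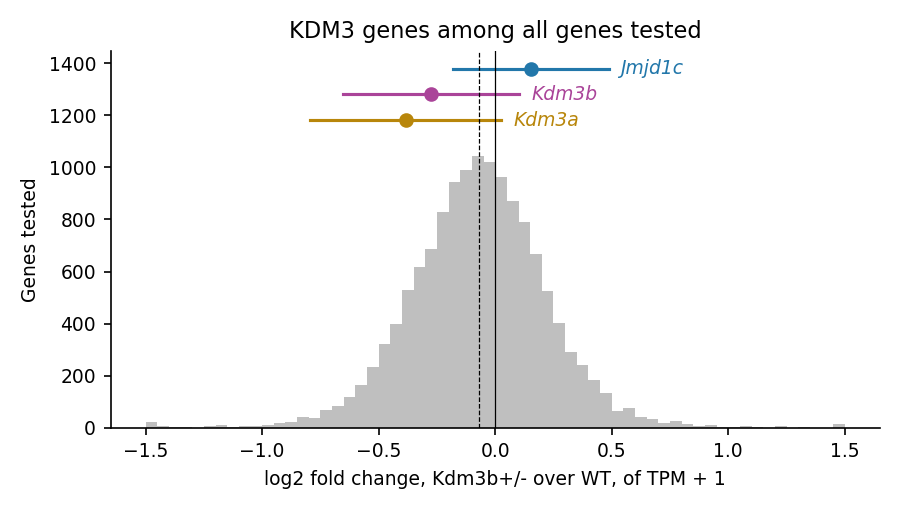
Number of genes tested (y axis, grey histogram) by log2 fold change of TPM + 1 (x axis, *Kdm3b*+/- over WT, values beyond ±1.5 put in the end bins). The points above give *Kdm3a* (−0.38), *Kdm3b* (−0.27) and *Jmjd1c* (0.15) with their 95% intervals, each of which includes 0, and the dashed line is the median of all genes (−0.07).

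Within each library the TPM of *Jmjd1c* was the highest of the family, that of *Kdm3a* came next and that of *Kdm3b* was the lowest. Across libraries the levels of *Kdm3a* (9.64 to 15.4) and *Kdm3b* (7.90 to 11.0) overlapped, while those of *Jmjd1c* (17.2 to 20.1) overlapped with neither. No test of this order was run. For 2 genes compared in 4 libraries, an exact sign-flip permutation test cannot go below a two-sided p of 0.125. The mean TPM of *Jmjd1c* was near the middle of all genes tested (percentile 49.8), and *Kdm3a* and *Kdm3b* were at percentiles 39.1 and 33.9. The lead of *Jmjd1c* was smaller when measured as read depth over exons. The mean read depth over its exons was between 28.2 and 42.5, and its FPKM was 1.44 to 1.45 times what that depth would give, a factor that was at most 1.02 for the other members. Read depth per aligned gigabase was 5.74, 5.14, 6.35 and 6.35 for *Jmjd1c* and 4.98, 6.51, 4.59 and 4.32 for *Kdm3a* in WT mice 1 and 2 and *Kdm3b*+/- mice 1 and 2. On this measure *Kdm3a* was above *Jmjd1c* in WT mouse 2, and *Kdm3b* stayed the lowest in every library, at 4.10, 4.74, 3.86 and 3.61.

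Added up per library, the family differed by −8.04% of the WT mean, less in percent than each member. The members moved in opposite directions, and so partly cancel in the sum. In TPM the sum differed by −3.31, more than *Jmjd1c* or *Kdm3b* did. The summed TPM of the 3 genes was 38.8 and 43.6 in WT libraries and 38.1 and 37.7 in *Kdm3b*+/- libraries, a mean of 41.2 ± 3.43 against 37.9 ± 0.277 (SD, n = 2 each). The ratio of these means was 0.920, and quantile normalization, which took it to 1.01, turned its direction. In TPM, *Jmjd1c* was higher by 2.10, and the differences in *Kdm3b* and *Kdm3a* were −1.95 and −3.46. In FPKM, which is scaled to mapped fragments instead, *Jmjd1c* differed by 1.32, *Kdm3b* by −0.68 and *Kdm3a* by −1.30. These differences are given as descriptions, since none of the genes passed the test. The sum of both paralogs was 29.7 and 32.6 in WT libraries and 29.8 in each of the *Kdm3b*+/- mice, so the genotypes overlapped.

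The makeup of the family differed between the libraries more than its sum. *Kdm3b* made up 23.5% and 25.2% of the summed TPM in WT libraries, and 21.8% and 20.96% in *Kdm3b*+/- libraries. *Kdm3a* held 29.0% and 35.3% in WT mice and 26.4% and 25.6% in *Kdm3b*+/- mice. *Jmjd1c* held 47.5% and 39.5% in WT mice, and 51.8% and 53.4% in *Kdm3b*+/- mice. By read depth per gigabase the share of *Jmjd1c* was smaller, 38.7% and 31.4% in WT and 42.9% and 44.5% in *Kdm3b*+/- mice, and on both measures the *Kdm3b*+/- shares lay above the WT shares. The ratio of *Jmjd1c* to *Kdm3b* was 2.02 and 1.57 in WT libraries by TPM, and 2.37 and 2.55 in *Kdm3b*+/- libraries. By read depth this ratio was 1.40 and 1.085 in WT mice, and 1.64 and 1.76 in *Kdm3b*+/- mice. For *Kdm3a* the TPM ratio to *Kdm3b* was 1.24 and 1.40 in WT mice and 1.21 in 1 *Kdm3b*+/- mouse and 1.22 in the other. The WT mice thus stood farther apart in this ratio than the groups did. WT mice 1 and 2 also differed in Purkinje cell markers (summed TPM of 1147 and 503), and the part of this in the shares was not tested.

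**Figure D3:**
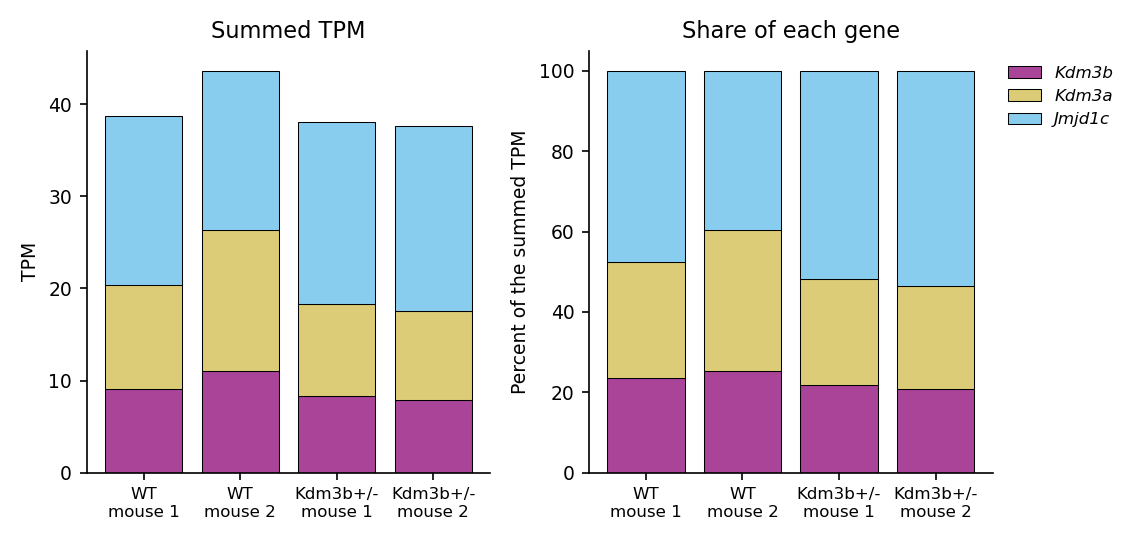
Stacked bars of TPM (left) and of the percent of the summed TPM (right) of *Kdm3b*, *Kdm3a* and *Jmjd1c* in each mouse. The sum is highest in WT mouse 2 (43.6) and lies between 37.7 and 38.8 in the other mice, and the TPM share of *Jmjd1c* is 51.8% and 53.4% in *Kdm3b*+/- libraries against 47.5% and 39.5% in WT libraries. By read depth the *Kdm3b*+/- shares are 42.9% and 44.5%.

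Other demethylases that act on H3K9 gave a similar picture, with lower means for most and no call. Of 10 such genes outside the family, 9 were tested, since *Kdm4d* was under the TPM minimum. None was called in limma, and 2 had an unadjusted p under 0.05, which 17% of all genes tested had. In *Kdm3b*+/- mice 8 of 9 had a lower mean. By length class, from the shortest up, a lower mean was found in 36.0%, 69.1%, 76.8% and 63.9% of genes. Their median log2 fold change was −0.23, against −0.07 for all genes and between −0.18 and 0.09 by length class. The largest difference was in *Hr* (chr14:70554056-70573548), which encodes Hairless, a corepressor of the thyroid hormone and vitamin D receptors and the closest relative of the KDM3 enzymes in sequence. The TPM of *Hr* was 32.0 and 44.2 in WT libraries, and 18.8 and 20.9 in *Kdm3b*+/- libraries. Both *Kdm3b*+/- values were well below both WT values. The log2 fold change of *Hr* was −0.89 (standard error 0.18, adjusted p = 0.0977 in limma), with a 95% interval from −1.30 to −0.48, and 1.21% of all genes changed by more. It was −1.12 without WT mouse 1 and −0.66 without WT mouse 2.

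*Kdm4b*, a demethylase of trimethylated H3K9, had a TPM of 40.7 and 64.6 in WT libraries and of 33.6 and 36.0 in *Kdm3b*+/- libraries. Its log2 fold change was −0.55 (adjusted p = 0.245 in limma), with WT mouse 2 far above the others. *Kdm4a*, of the same subfamily, had a TPM of 12.3 and 10.3 in WT mice and of 6.93 and 10.0 in *Kdm3b*+/- mice (log2 fold change −0.39, adjusted p = 0.349 in limma). *Kdm1a*, or LSD1, which removes methyl groups by a flavin-dependent reaction and has no JmjC domain, had a TPM of 57.8 and 62.8 against 51.8 and 50.4, the highest of these genes in each library but WT mouse 2, where *Kdm4b* was above it. *Kdm7a* alone had a higher mean in *Kdm3b*+/- mice, with 12.02 and 12.6 against 13.4 and 12.8. No gene of this set was thus called higher. The smallest rise called among all genes tested was 0.77 on the log2 scale, so a smaller rise could have gone uncalled.

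**Figure D4:**
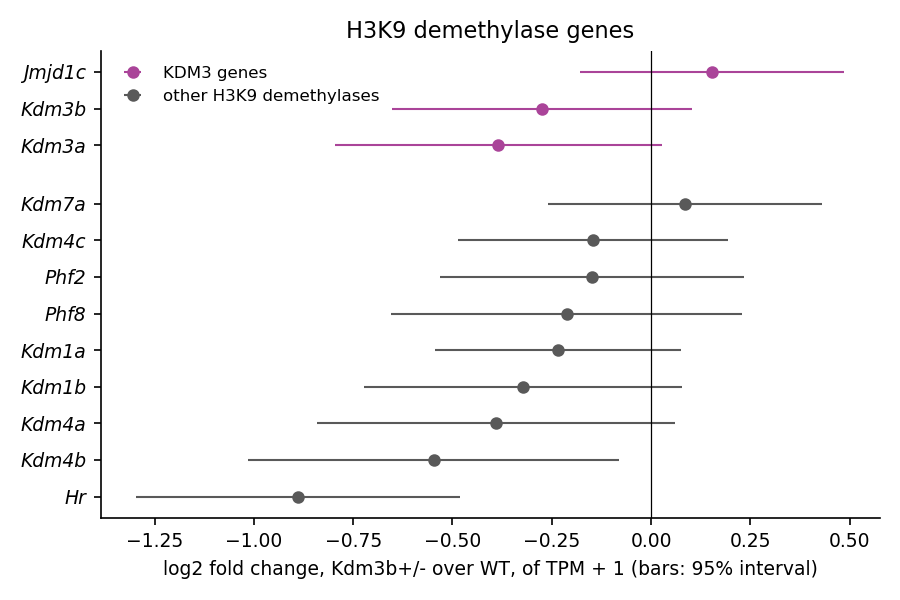
Log2 fold change of TPM + 1 (x axis, *Kdm3b*+/- over WT) with 95% intervals from limma for the KDM3 genes and the 9 other H3K9 demethylase genes tested (y axis). *Hr* (−0.89) and *Kdm4b* (−0.55) are the genes whose interval leaves out 0, and neither passed the adjusted threshold.

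Among the 28 other genes with a JmjC domain, which include most of the H3K9 demethylases above, 27 were tested and none was called in limma. An unadjusted p under 0.05, which 17% of all genes tested had, was found for 3 of them, all lower in *Kdm3b*+/- mice. The mean was higher for 8 genes and lower for 19, with a median log2 fold change of −0.10. A lower mean was found in 36.0% to 76.8% of genes by length class. The changes ran from −0.89 in *Hr* to 0.20 in *Kdm6b*, an H3K27 demethylase with a TPM of 5.72 and 6.43 in WT libraries and of 6.94 and 7.33 in *Kdm3b*+/- libraries (adjusted p = 0.55 in limma).

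The enzymes that write H3K9 methylation and the proteins that read it were tested as 16 of 17 genes, *Uhrf1* being under the TPM minimum. None was called in limma, and 2 had an unadjusted p under 0.05, where 17% of all genes tested had one. In *Kdm3b*+/- mice 5 had a higher and 11 a lower mean, and the median log2 fold change was −0.13. By length class, 36.0% to 76.8% of genes had a lower mean. *Ehmt1* and *Ehmt2*, which write the mark that KDM3 enzymes remove, had log2 fold changes of −0.12 and −0.14 (adjusted p = 0.713 and 0.705 in limma). The TPM of *Ehmt2* was 28.8 and 37.2 in WT libraries and 27.8 and 31.7 in *Kdm3b*+/- libraries, with an overlap. The largest difference was in *Atf7ip*, a partner of the methyltransferase Setdb1, with 14.1 and 18.3 in WT libraries and 9.83 and 8.44 in *Kdm3b*+/- libraries (log2 fold change −0.76, adjusted p = 0.127 in limma). *Zfp644*, a zinc-finger partner of Ehmt1 and Ehmt2, had 26.3 and 25.3 against 42.3 and 30.96 (log2 fold change 0.47, adjusted p = 0.238 in limma). *Setdb2* had 7.50 and 5.22 against 5.06 and 4.01 (log2 fold change −0.40, adjusted p = 0.352 in limma).

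Most of the listed regulators of the hypoxia response had lower means in *Kdm3b*+/- mice, whereas hypoxia targets other than *Kdm3a* lay on both sides of 0. A link between these genes and the level of *Kdm3a* was not tested. All 8 regulators were tested and 7 had a lower mean, as did 36.0% to 76.8% of genes by length class. Their median log2 fold change was −0.23, against −0.07 for all genes and between −0.18 and 0.09 by length class. None was called in limma. An unadjusted p under 0.05, which 17% of all genes tested had, was found for 1 regulator. That gene was *Hif1an*, whose JmjC enzyme hydroxylates hypoxia-inducible factors, with a TPM of 11.1 and 13.2 in WT libraries and of 8.43 and 8.66 in *Kdm3b*+/- libraries (log2 fold change −0.46, adjusted p = 0.233 in limma). *Egln2* and *Arnt* had log2 fold changes of −0.30 each (adjusted p = 0.299 and 0.401 in limma). *Hif1a* itself had a TPM of 61.7 and 87.6 in WT mice and of 62.6 and 60.4 in *Kdm3b*+/- mice.

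Of 18 other hypoxia targets 17 were tested, and *Hk2* was under the TPM minimum. None was called in limma. An unadjusted p under 0.05 was found for 5, 3 higher and 2 lower, where 17% of all genes tested had one. The median log2 fold change was 0.08, with 10 higher and 7 lower means. *Car9*, a carbonic anhydrase at the cell surface, had a TPM of 27.7 and 28.5 in WT libraries and of 16.3 and 18.1 in *Kdm3b*+/- libraries (log2 fold change −0.68, adjusted p = 0.107 in limma). *Adm*, which encodes the peptide adrenomedullin, had 3.67 and 3.22 against 5.66 and 5.38 (log2 fold change 0.55, adjusted p = 0.189 in limma). *Ankrd37* had 50.1 and 39.3 against 71.1 and 58.9 (log2 fold change 0.53, adjusted p = 0.19 in limma). The groups of *Car9*, *Adm* and *Ankrd37*, named for their large changes, did not overlap, as in 51.3% of all genes tested, and their directions differed.

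Genes with a pattern like that of a KDM3 gene were found by the root mean square difference of log2(TPM + 1), centred on each gene's mean, over the 4 libraries. The nearest to *Kdm3b* were *Chrnb1* (0.00923), *Zfp74* (0.00926) and *Stk10* (0.00947). *Zfp74*, a zinc-finger gene, had a TPM of 13.3 and 15.96 in WT libraries and of 12.1 and 11.4 in *Kdm3b*+/- libraries. The nearest to *Kdm3a* were *Poc5* (0.0078), *Zfp446* (0.00889) and *Bcl2l1* (0.0127), and *Bcl2l1*, which encodes an inhibitor of apoptosis, had 216 and 292 against 192 and 187. The nearest to *Jmjd1c* were *Amot* (0.00855), *Armcx4* (0.00861) and *Hexim1* (0.00876). *Hexim1*, an inhibitor of the elongation factor P-TEFb, had 24.4 and 22.6 against 26.0 and 26.2. Such likeness was not limited to the genes named. Over the 4 libraries, 272 genes (1.99% of the other genes tested) lay within 0.05 of *Kdm3b*, 86 (0.63%) of *Kdm3a* and 409 (3.0%) of *Jmjd1c*.

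The signs of all 3 members held under each of the 17 alternatives that were tried. The log2 fold change of *Kdm3a* ran from −0.59 to −0.18, that of *Kdm3b* from −0.40 to −0.14 and that of *Jmjd1c* from 0.11 to 0.28, and none of the genes was called under any of them. For *Kdm3a* both ends came from leaving out 1 of the WT mice. Many alternatives could not turn a sign. A changed filter, variance model or block left the estimates as they were. Leaving out 1 library cannot turn a sign where the groups do not overlap, as here.

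**Figure D5:**
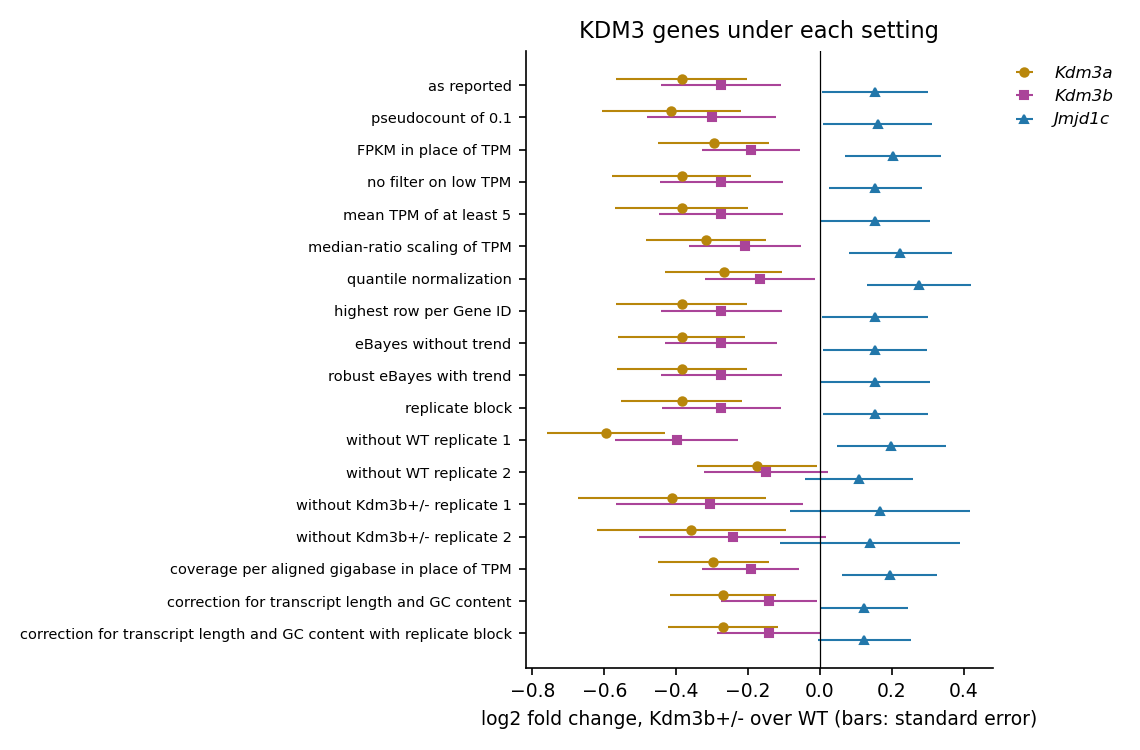
Log2 fold change (x axis, *Kdm3b*+/- over WT, bars are the standard error) of *Kdm3a*, *Kdm3b* and *Jmjd1c* as reported and under each alternative (y axis). *Kdm3a* stays between −0.59 and −0.18, *Kdm3b* between −0.40 and −0.14 and *Jmjd1c* between 0.11 and 0.28.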

How the data were processed

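Low-quality bases were trimmed, reads were aligned with STAR and gene abundance was estimated with StringTie by the authors, who deposited abundance estimates for each library. The deposited coverage is the average depth of reads on exons. The deposited FPKM is scaled to length and mapped fragments, and the deposited TPM to length and 1000000 per library. Tool versions, build and annotation are not given in the sources used here. Of the identifiers, 99.6% lay on the chromosome that RefSeq gives in GRCm38.p6 and 24462 had a symbol.

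Groups came from the labels. TPM was summed over entries of 1 identifier. Genes whose TPM averaged 1 or more, 13652 in all, were compared as log2(TPM + 1) with limma version 3.58.1 (trended eBayes; R version 4.3.3), using genotype as the only term and Benjamini-Hochberg adjustment over all of them. Aligned bases were read from the commonest ratio of coverage to FPKM. Counts were not recovered, so no count test was run. Intervals are limma's, and rest on a spread shared across genes.

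The members and lists were chosen with earlier results of these data known. Named genes are the members, *Hr*, at most 3 of each list with the largest changes, and the 3 genes most like each member. *Ehmt1*, *Ehmt2*, *Kdm1a*, *Kdm7a*, *Kdm6b*, *Hif1a* and the granule cell, astrocyte, interneuron and fibroblast markers were named with their values known. The fits were tested on simulated data.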

Additional observations from a re-analysis of the deposited data

How the results depend on the processing

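Of the 17 alternatives, 14 were planned and 3 were added after seeing the data (read depth per aligned gigabase, and correction for length and GC of transcripts, as such and with a block). Many could not turn a sign. *Kdm3a*, *Kdm3b* and *Jmjd1c* kept their sign and stayed uncalled in all of the alternatives. Their adjusted p lay between 0.103 and 0.877, 0.203 and 0.957, and 0.385 and 0.981. With libraries left out in turn, where the lone library is assumed to vary like the other group, the log2 fold change ran from −0.59 to −0.18, from −0.40 to −0.15 and from 0.11 to 0.20. The summed TPM ratio was 0.920 and ran from 0.868 to 0.977 with libraries left out, and quantile normalization moved it to 1.01. The difference in the share of *Kdm3b* was −2.96 percentage points, and −3.83 to −2.09 with libraries left out. The 63 calls over all genes, 16 higher and 47 lower, became 38 with FPKM, 1 without a filter on low TPM, 37 without trend, 600 with the replicate block and 15 with read depth per gigabase, and ran from 21 to 188 with libraries left out. With median-ratio scaling 23 were higher and 38 lower. In the paired fit with the replicate block the log2 fold changes were the same, with adjusted p of 0.194, 0.347 and 0.571, and *Hr* was called, with an adjusted p of 0.00963. With the replicate block after the correction for length and GC, *Hr* was not called (adjusted p = 0.0862) and 42 genes were called in all. Same-numbered mice are different animals, and their deviations correlated at 0.121. The cause of these shifts was not tested. Depth per gene cannot be read as counts, so no counting error is given.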
